A study of Homo sapiens with 6 samples.

Results

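The 9 genes described here, PAX5, EBF1, SPIB, BCL6, BACH2, MS4A1, CD79A, CD79B and CD22, are part of the expression program of B cells and were read in RPMI8226 cells, an established human multiple myeloma (MM) line, which is a tumor of plasma cells. They were chosen by symbol, matched by Ensembl identifier on the primary chromosomes, and are 9 of the 57773 genes listed there. The cells, labelled wild type, received either 100 nM GST-PTR1 or 100 nM GST for 6 hr, and 3 biological replicates of each treatment were sequenced. GST-PTR1 joins glutathione-S-transferase to PTR1, a domain of HAPLN1, which is a link protein of the extracellular matrix, and GST alone was the control. Both proteins are recombinant, and only 1 cell line, 1 dose and 1 time were sequenced. The comparison asks which B cell genes differed after GST-PTR1 and which stayed silent in both treatments.

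B cells keep their identity through a small set of transcription factors. EBF1 and PAX5 commit precursors to the lineage, SPIB is an ETS family factor close to PU.1, and BCL6 and BACH2 are repressors that hold activated B cells in the germinal centre and off the plasma cell fate. Their targets include the B cell receptor signalling chains CD79A and CD79B, the surface protein CD20 (encoded by MS4A1) and the inhibitory receptor CD22. When a B cell becomes a plasma cell, PRDM1 (Blimp-1), IRF4 and XBP1 take over and most of these genes are turned down.

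With GST-PTR1, BCL6 and SPIB rose. BCL6 was 6.65-fold higher (95% interval 5.18 to 8.52) and SPIB 3.99-fold higher (2.43 to 6.54). PAX5, MS4A1, CD79A and BACH2 were present at low levels and did not pass the test. CD79B lay close to the limit of detection, CD22 had 3 reads in all 6 libraries together and EBF1 had none, so CD22 and EBF1 were silent in both treatments. Of the 9 genes, 6 had enough counts to be tested, and 2 of these 6 passed the test (edgeR's quasi-likelihood fit, Benjamini-Hochberg adjusted p under 0.05 over the 16926 genes tested). Over all genes tested the share was 20.6%, with 9.15% higher and 11.4% lower. SPIB met the count filter only through its GST-PTR1 libraries, as it had 0.398 CPM in GST library 2. CD79A met it only through its GST libraries, as it had 0.380 CPM in GST-PTR1 library 3. The 2 of 6 is therefore a description. Both BCL6 and SPIB were at least 2-fold higher, and none of the 6 was 2-fold lower. At 2-fold, 3.68% of all genes tested were higher and 3.85% lower.

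Depth was 15202503, 20077280 and 23453473 counts with GST and 22874133, 28837431 and 44688737 counts with GST-PTR1. The libraries are called libraries 1 to 3 of each treatment in that order, which is an order of depth only. Values are CPM, that is counts scaled by the library total, or RPKM, CPM per kilobase of exon, where genes are compared with each other. In the GST libraries 3 counts were worth 0.197, 0.149 and 0.128 CPM, and in the GST-PTR1 libraries 0.131, 0.104 and 0.0671 CPM. The limit of detection was set at 3 counts, and a gene that no library of a treatment read more often was called silent in it. Fold changes come from the edgeR fit with TMM factors, while the CPM and RPKM values are on library totals. When library totals replaced the TMM factors, the median over all tested genes moved by -0.20 in log2 fold change.

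The cell type was checked first. Of 20 plasma cell genes, the 6 with the highest levels had a mean in the GST libraries of 1383 RPKM for JCHAIN (the immunoglobulin joining chain), 419 RPKM for MZB1, 300 RPKM for HSP90B1, 162 RPKM for PRDX4, 142 RPKM for XBP1 and 112 RPKM for SDC1 (CD138). The 9 B cell program genes lay between 0 and 0.629 RPKM there. Other plasma cell genes were lower, such as SLAMF7 at 1.30 RPKM, and CD27 was at the limit of detection in every library. Of the markers of other cells, 8 of 12 T and NK cell genes, 5 of 10 myeloid genes and 5 of 10 stromal and epithelial genes were at the limit of detection in every library. Among them CD2, CD163, MPO, COL1A2 and COL3A1 had 0 counts throughout, while other markers of the same lists were read. The exceptions included CD8B, a T cell marker, with a mean of 202 RPKM in the GST libraries, which is above PRDX4, XBP1 and SDC1. Means there were 30.2 RPKM for EPCAM, 29.1 RPKM for KRT18, 2.00 RPKM for TRAT1 and 0.703 RPKM for CDH1. COL1A1 had 4 to 13 counts in each library. With GST-PTR1, KRT18 fell from 93.5 to 51.9 CPM (log2 fold change -0.65, adjusted p = 0.000639, edgeR), CD8A from 5.42 to 2.93 CPM (-0.70, adjusted p = 0.0132) and CD4 from 0.828 to 0.231 CPM (-1.58, adjusted p = 0.0147). The calls of CD8A (adjusted p = 0.0643) and CD4 (0.0554) were lost without GST-PTR1 library 2, and also without GST library 3 for CD8A (0.0579) and GST library 1 for CD4 (0.0523). The summed level of the myeloid list was 3.19 to 4.60 CPM with GST and 5.90 to 10.96 CPM with GST-PTR1, where S100A9 alone rose from 2.50 to 6.99 CPM. The T and NK cell list summed to 377 to 398 CPM with GST and 301 to 391 CPM with GST-PTR1, and the stromal and epithelial list to 170 to 184 CPM and 114 to 123 CPM. The part of these markers in the results was not tested. In bulk RNA, fewer cells that express a gene and less RNA per cell cannot be told apart.

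**Figure D1:**
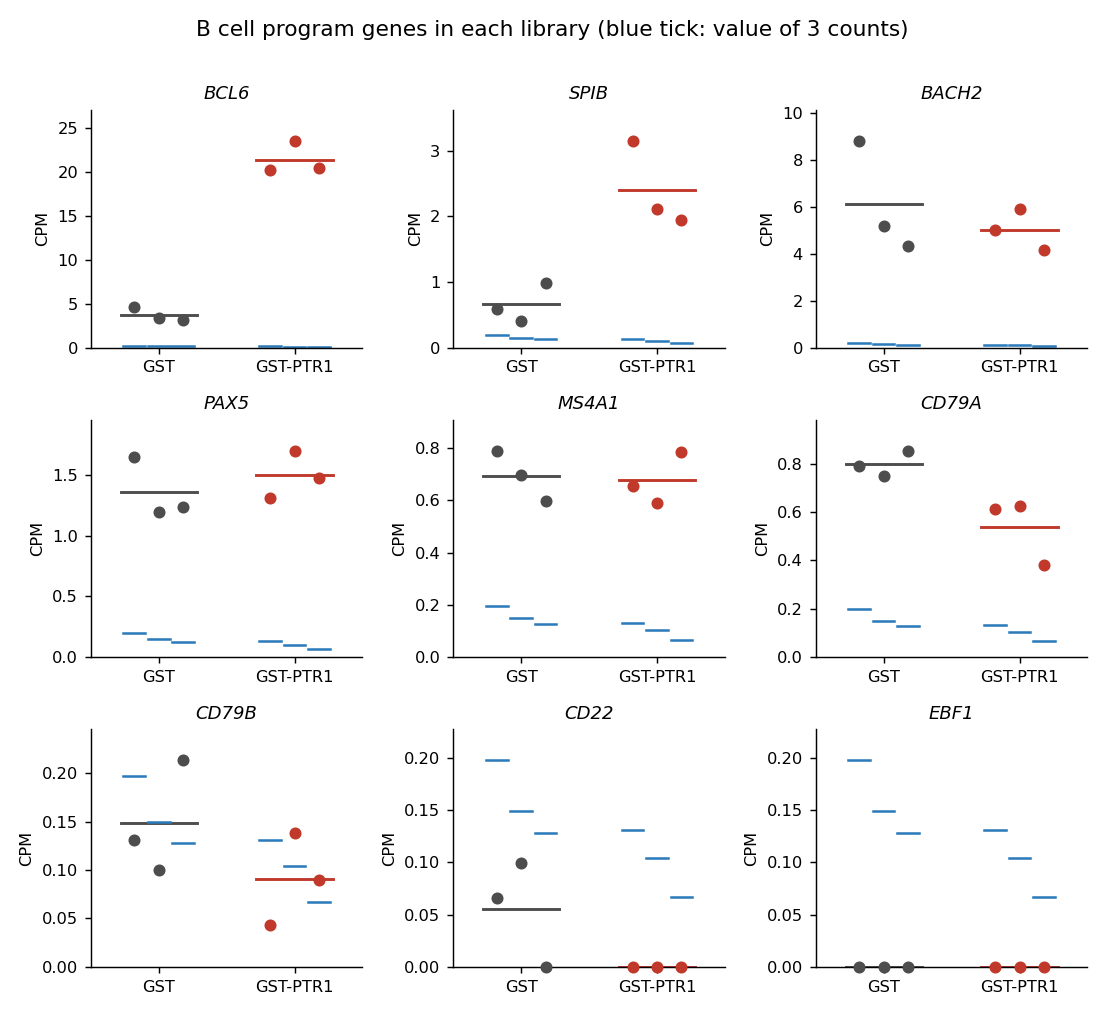
CPM (linear axes from 0) of the 9 B cell program genes in the 3 GST libraries (grey) and the 3 GST-PTR1 libraries (red), each treatment ordered by depth. Horizontal bars are means and blue ticks mark what 3 counts are worth in each library. BCL6 and SPIB sit higher in every GST-PTR1 library than in any GST library, while CD22 and EBF1 lie at or under the ticks.

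BCL6 (ENSG00000113916, chromosome 3 of GRCh37 from 187439165 to 187463515, minus strand) encodes a zinc finger repressor that the germinal centre reaction depends on. It had 71, 68 and 74 counts in the GST libraries, or 4.67, 3.39 and 3.16 CPM. In the GST-PTR1 libraries it had 462, 678 and 912 counts, or 20.2, 23.5 and 20.4 CPM. Every GST-PTR1 library was far above the highest GST library, and the mean rose from 3.74 ± 0.816 to 21.4 ± 1.86 CPM (SD, n = 3 each). The log2 fold change was 2.73 (standard error 0.16, 95% interval 2.37 to 3.09, adjusted p = 7.12e-07, edgeR). Only 167 of the 16926 genes tested had a larger increase. BCL6 moved from a mean RPKM above 14.1% of all tested genes to one above 47.8% of them. Genes on the other strand cover 3.07% of its exon bases, and the deposited counts were made by strand.

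SPIB (ENSG00000269404, chromosome 19 from 50922195 to 50934570, plus strand) encodes an ETS factor that B cells and plasmacytoid dendritic cells use. It had 9, 8 and 23 counts with GST, or 0.592, 0.398 and 0.981 CPM. With GST-PTR1 it had 72, 61 and 87 counts, or 3.15, 2.12 and 1.95 CPM. The treatments did not overlap, and the nearest values were 0.981 CPM in GST library 3 and 1.95 CPM in GST-PTR1 library 3. The mean rose from 0.657 ± 0.297 to 2.40 ± 0.650 CPM, and the log2 fold change was 2.00 (standard error 0.32, 95% interval 1.28 to 2.71, adjusted p = 0.00148, edgeR). Of all genes tested, 262 had a larger increase, and its mean RPKM moved from above 2.95% to above 15.9% of all tested genes. SPIB shares 19.6% of its exon bases with ENSG00000142539 on the same strand. Reads on shared bases were left out by the authors' counting, so its level lacks those reads, and ENSG00000142539 itself had 0 counts in every library.

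The 250 bases upstream of the RefSeq start sites (GRCh38.p14, a later build than the GRCh37 of the gene positions above) are shown for BCL6 and SPIB, the genes that rose, and for BACH2, the other repressor, which did not pass the test. Each is written 5′ to 3′ on the strand of the gene and ends 1 base before the start. BCL6 has 2 annotated starts, at chr3:187745469-187745718 and chr3:187736502-187736751 (both minus strand). The SPIB window is chr19:50418688-50418937 (plus strand) and the BACH2 window chr6:90296844-90297093 (minus strand). Capitals mark a match to 1 of 5 short motifs searched on both strands.
BCL6 window 1: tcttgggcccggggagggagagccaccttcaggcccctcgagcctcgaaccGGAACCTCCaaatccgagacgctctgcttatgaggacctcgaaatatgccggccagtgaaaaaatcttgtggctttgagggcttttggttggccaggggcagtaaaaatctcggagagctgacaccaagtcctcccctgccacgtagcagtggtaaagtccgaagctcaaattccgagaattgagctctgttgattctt
BCL6 window 2: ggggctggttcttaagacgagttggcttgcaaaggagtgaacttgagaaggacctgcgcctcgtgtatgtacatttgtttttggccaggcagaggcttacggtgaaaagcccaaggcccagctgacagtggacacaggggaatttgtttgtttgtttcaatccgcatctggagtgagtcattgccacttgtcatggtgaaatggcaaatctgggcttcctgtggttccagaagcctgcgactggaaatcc
SPIB: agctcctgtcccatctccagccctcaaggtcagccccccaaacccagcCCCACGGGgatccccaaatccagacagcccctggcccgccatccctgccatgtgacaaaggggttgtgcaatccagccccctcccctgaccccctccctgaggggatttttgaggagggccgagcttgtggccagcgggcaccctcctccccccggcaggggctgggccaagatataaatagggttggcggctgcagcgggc
BACH2: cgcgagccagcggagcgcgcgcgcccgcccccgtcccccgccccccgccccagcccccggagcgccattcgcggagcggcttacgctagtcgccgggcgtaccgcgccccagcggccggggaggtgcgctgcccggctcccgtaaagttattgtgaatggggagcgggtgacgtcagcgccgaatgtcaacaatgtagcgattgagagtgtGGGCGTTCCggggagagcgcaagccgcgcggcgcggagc

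The motifs were GGNNNTTCC for NF-kB (17.1% of 35116 RefSeq promoter windows of this length hold it), CCCNNGGG for EBF1 (17.1%), GAGGAA for PU.1 and SPIB (23.6%), the octamer ATTTGCAT (1.63%) and TTCCTAGAA for BCL6 (0.313%). RefSeq windows could be had for 7 of the 9 genes, 8 windows in all. The first BCL6 window held 1 NF-kB match, on the opposite strand from -199 to -191 of the start, and the second held none of the 5. SPIB held 1 EBF1 match from -202 to -195, and this pattern is the same when read on either strand. BACH2 held 1 NF-kB match from -39 to -31, and PAX5 had 1 PU.1 and SPIB match on the opposite strand from -114 to -109. The windows of CD79A, CD22 and EBF1 held none. The bases just after the start were found in a transcript of the same gene for every window but those of PAX5 and EBF1. The starts of these windows therefore rest on the RefSeq annotation alone. No 2 matches overlapped. Thus the letters of the NF-kB motif stand both in a gene that rose and in one that did not pass the test, and a match is not a shown site.

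BACH2 (ENSG00000112182, chromosome 6 from 90636248 to 91006627, minus strand) encodes a repressor of PRDM1. It had 134, 104 and 102 counts with GST, or 8.81, 5.18 and 4.35 CPM, and 115, 171 and 186 counts with GST-PTR1, or 5.03, 5.93 and 4.16 CPM. The treatments overlapped, and GST library 1 stood above the other 5 libraries. Its means were 6.11 ± 2.37 and 5.04 ± 0.884 CPM, and the log2 fold change was -0.06 (standard error 0.24, 95% interval -0.60 to 0.47, adjusted p = 0.871, edgeR). The sign rested on single libraries. Without GST library 1, the shallowest and the highest for this gene, the log2 fold change was 0.25, and without GST-PTR1 library 3 it was 0.05. A change of 2-fold in either direction lies outside the interval.

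PAX5 (ENSG00000196092, chromosome 9 from 36833272 to 37034103, minus strand), the factor that fixes B cell identity, had 25, 24 and 29 counts with GST, or 1.64, 1.20 and 1.24 CPM. With GST-PTR1 it had 30, 49 and 66 counts, or 1.31, 1.70 and 1.48 CPM. The treatments overlapped, and PAX5 stayed far above the 3 counts taken as the limit in every library. Its means were 1.36 ± 0.248 and 1.496 ± 0.195 CPM. The log2 fold change was 0.36 (standard error 0.24, 95% interval -0.16 to 0.89, adjusted p = 0.298, edgeR), so an increase of up to 1.85-fold is within the interval. The level was low in both treatments, above only 2.73% and 4.71% of all tested genes in RPKM.

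EBF1 (ENSG00000164330, chromosome 5 from 158122928 to 158526769, minus strand), which acts with PAX5 at the start of the lineage, had 0 counts in all 6 libraries. Over the 3 libraries of a treatment a count of 0 allows up to 0.0511 CPM with GST and 0.0311 CPM with GST-PTR1, taking 3 counts as the limit. This covers counting error only. EBF1 and PAX5 thus differed in being silent and being read at a low level.

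Among the surface genes, MS4A1 (ENSG00000156738, chromosome 11 from 60223225 to 60238233, plus strand), which encodes the CD20 antigen of B cells, had 12, 14 and 14 counts with GST and 15, 17 and 35 counts with GST-PTR1. Its levels were 0.789, 0.697 and 0.597 CPM with GST and 0.656, 0.590 and 0.783 CPM with GST-PTR1. The 2 ranges lay almost on top of each other. The means were 0.695 ± 0.0962 and 0.676 ± 0.0984 CPM, and the log2 fold change was 0.21 (standard error 0.30, 95% interval -0.44 to 0.86, adjusted p = 0.649, edgeR). It was 0.00 on library totals and -0.41 with all libraries thinned to the smallest total, so these counts give no direction.

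CD79A (ENSG00000105369, chromosome 19 from 42381190 to 42385439, plus strand) encodes the Ig-alpha chain, which carries the signal of the B cell receptor into the cell. It had 12, 15 and 20 counts with GST, or 0.789, 0.747 and 0.853 CPM. With GST-PTR1 it had 14, 18 and 17 counts, or 0.612, 0.624 and 0.380 CPM. Every GST-PTR1 library was below every GST library, with means of 0.796 ± 0.0532 and 0.539 ± 0.137 CPM. The log2 fold change was -0.42 (standard error 0.30, 95% interval -1.08 to 0.25) and did not pass edgeR's test (adjusted p = 0.348). Its direction was the same in all 15 alternatives, from -0.61 to -0.20. BCL6, SPIB and CD79A were the 3 of the 6 tested genes whose treatments did not overlap, on library totals and with TMM factors. With TMM factors 40.4% of all genes tested had no overlap. An exact two-sided permutation test used log2 of TMM-scaled CPM plus 0.5. In this permutation test these 3 genes reached p = 0.1, the smallest that 3 libraries against 3 allow.

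CD79B (ENSG00000007312, chromosome 17 from 62006100 to 62009714, minus strand) encodes the partner chain Ig-beta. It had 2, 2 and 5 counts with GST and 1, 4 and 4 counts with GST-PTR1, or 9 counts in each treatment. Over the pooled libraries this was 0.153 CPM (exact Poisson 95% interval 0.0701 to 0.291) with GST and 0.0934 CPM (0.0427 to 0.177) with GST-PTR1. A ratio of 0.609 had an interval from 0.214 to 1.73, and these intervals cover counting error only. CD79B was too low for edgeR's filter. With a filter of 1 count in any library its adjusted p was 0.758. Both receptor chains were thus low, and CD79A was above CD79B in RPKM in every library.

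CD22 (ENSG00000012124, chromosome 19 from 35810164 to 35838258, plus strand) encodes a sialic acid-binding receptor that dampens B cell receptor signals. It had 1, 2 and 0 counts with GST and 0 in each GST-PTR1 library. The exact Poisson 95% intervals, 0.0105 to 0.149 CPM with GST and 0 to 0.0383 CPM with GST-PTR1, overlapped. No difference was detectable at this depth (adjusted p = 0.269 with the filter of 1 count in any library, edgeR). With a limit of 10 counts in place of 3, CD79B would be counted as silent too, 3 genes in all.

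**Figure D2:**
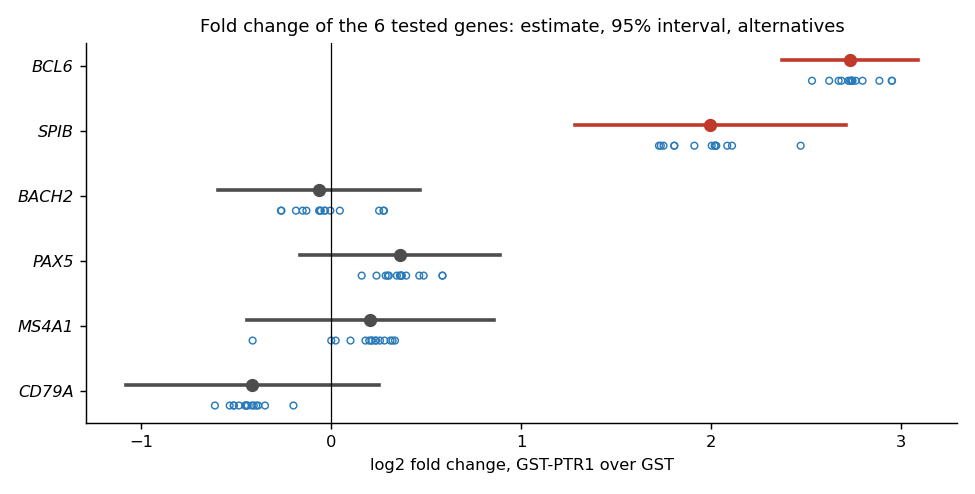
Log2 fold change of GST-PTR1 over GST for the 6 tested genes. Filled points and lines are the estimate of edgeR's fit with its 95% interval (red for an adjusted p under 0.05, grey otherwise), and open blue circles are the estimates under the alternative scalings, filters, tests and sets of libraries. BCL6 at 2.73 and SPIB at 2.00 are clear of 0 under each alternative shown, BACH2 and MS4A1 have circles on both sides of 0, and CD79A stays below it.

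The order of the levels per length differed between the treatments. With GST, BCL6 (0.629 ± 0.137 RPKM), BACH2 (0.625 ± 0.243 RPKM) and CD79A (0.530 ± 0.0354 RPKM) came first, and neighbours among them overlapped in range. They were followed by SPIB (0.153 RPKM), PAX5 (0.147 RPKM) and MS4A1 (0.143 RPKM), whose neighbours overlapped too. CD79B (0.0712 RPKM) and CD22 (0.00944 RPKM) came below them. With GST-PTR1, BCL6 stood alone at 3.60 ± 0.312 RPKM, its lowest library above the highest of any other member. SPIB (0.561 ± 0.152 RPKM) then overlapped with BACH2 (0.515 ± 0.0903 RPKM). CD79A was at 0.359 RPKM, PAX5 at 0.162 RPKM and MS4A1 at 0.139 RPKM, with an overlap between the last 2, and CD79B at 0.0436 RPKM. So BCL6 went from level with BACH2 to the head of the group, and SPIB from level with PAX5 to level with BACH2.

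**Figure D3:**
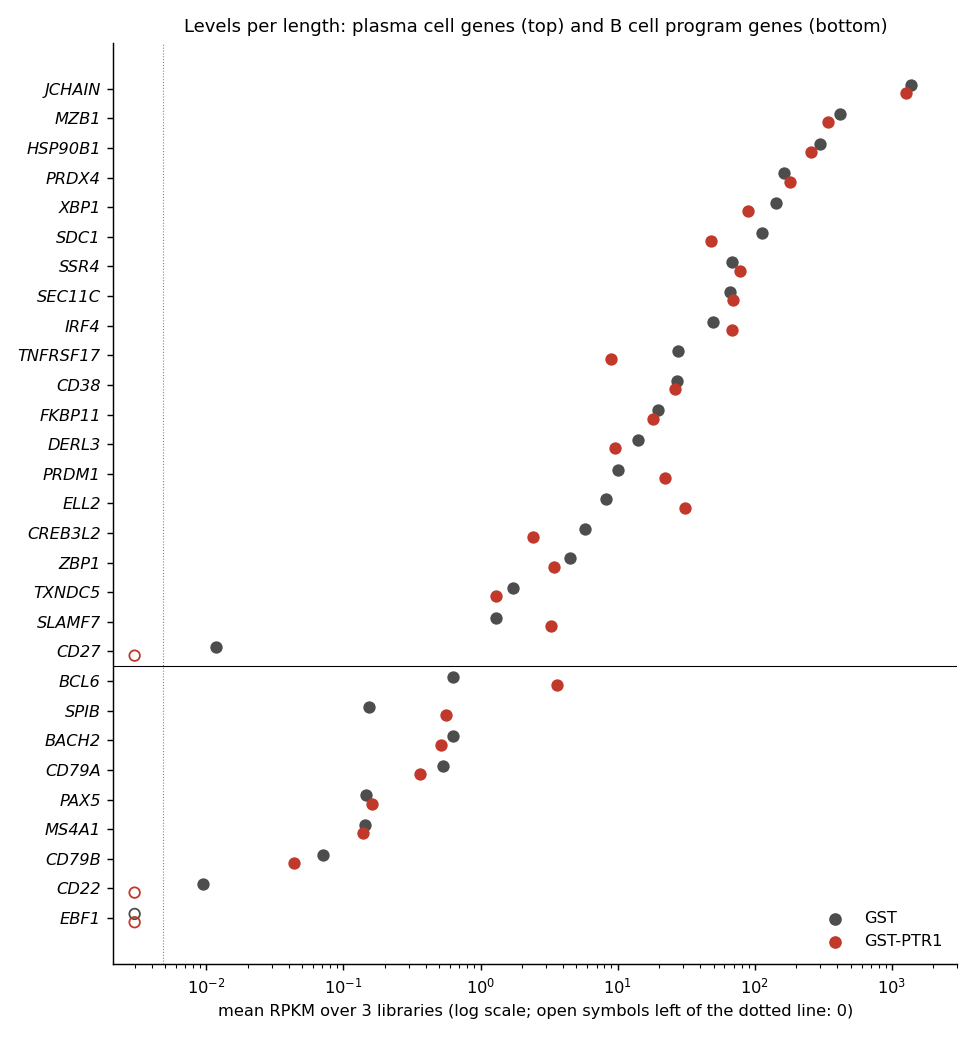
Mean RPKM over 3 libraries (log axis) of all 20 listed plasma cell genes (above the line) and the 9 B cell program genes (below it) with GST (grey) and GST-PTR1 (red). Open symbols left of the dotted line stand for 0. With GST the program genes lie below every plasma cell gene except CD27. With GST-PTR1 BCL6, at 3.60 RPKM, is above ZBP1, SLAMF7, CREB3L2, TXNDC5 and CD27. For TXNDC5, 57.5% of the exon length overlaps neighbours on the same strand. Reads from that overlap were not counted, so the RPKM of TXNDC5 lacks them and its place below BCL6 is uncertain.

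Other genes of B cells were read from 4 lists, which together hold 105 genes in the table, 88 of them tested. With edgeR's test 26 of the 88 were higher and 17 lower with GST-PTR1. The split depended on the scaling and was 21 higher and 25 lower on library totals, where 927 of all tested genes were higher and 3788 lower in place of 1549 and 1937. Without GST-PTR1 library 2, 10 genes were lower in place of 17. Over all genes tested, 1179 of 17389 were then lower in place of 1937 of 16926. The 4 list medians lay between -0.31 and 0.16 in log2 fold change, and that of all genes tested was 0.01. The lists were chosen with earlier results of these data known, so the counts are a description.

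Of 21 tested surface and adaptor genes, 6 were higher, 3 lower and 12 not called, with a median log2 fold change of 0.03. The shares were 28.6% higher and 14.3% lower, beside 9.15% and 11.4% of all genes tested. On library totals 5 were higher and 6 lower, where 927 of all 16926 genes tested were higher and 3788 lower. CD83, a membrane protein of activated B cells, rose from 34.7 ± 1.84 to 356 ± 27.2 CPM (log2 fold change 3.56, adjusted p = 2.29e-08, edgeR). CD86, a costimulatory ligand, rose from 16.4 to 79.3 CPM (log2 fold change 2.48), and CCR7, which guides lymphocytes into lymph nodes, from 0.318 to 6.22 CPM (4.44). BLK, a Src family kinase of B cells, fell from 144 to 63.9 CPM (-0.98), CD72, an inhibitory co-receptor, from 14.4 to 4.12 CPM (-1.59), and LY9, a SLAM family receptor, from 1.39 to 0.426 CPM (-1.53). CD40, the receptor for T cell help, was chosen after its values were seen and rose from 3.10 to 14.1 CPM (2.38). CR2 (CD21) and FCER2 (CD23), also chosen after their values were seen, were at 312 and 80.0 CPM with GST and did not pass the test (adjusted p = 0.324 and 0.347, edgeR).

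Of 26 tested B cell transcription factors other than the program genes, 8 were higher, 3 lower and 15 not called, with a median of 0.16. Higher were 30.8%, beside 9.15% of all genes tested. The share lower, 11.5%, was near the 11.4% of all genes tested. IRF8 rose from 50.6 ± 4.18 to 141 ± 6.08 CPM (log2 fold change 1.67, adjusted p = 1.63e-06, edgeR) and is a partner of PU.1 in B cells. LEF1, a factor of early B cells and of Wnt signaling, rose from 11.2 to 39.0 CPM (2.00). BACH1, the paralog of BACH2, rose from 50.7 to 120 CPM (1.44), and 17.8% of its exon bases also belong to other genes of that strand. ID3, an inhibitor of E-proteins, fell from 3.04 to 0.999 CPM (-1.40). SPI1, which encodes PU.1, fell from 21.5 to 12.6 CPM (-0.58, adjusted p = 0.0107), while its relative SPIB rose. Its adjusted p was 0.0557 without GST-PTR1 library 2. MEF2C was at 40.2 and 25.9 CPM (-0.45, adjusted p = 0.0474) and lost its call under 7 of 15 alternatives, with an adjusted p of up to 0.165 without GST-PTR1 library 3. Without GST-PTR1 library 2 only 1 of these factors was lower, in a fit with 1179 of 17389 genes tested lower.

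Of 29 tested genes of B cell receptor signalling, 9 were higher, 6 lower and 14 not called, with a median of 0.12. The shares were 31.0% higher and 20.7% lower, beside 9.15% and 11.4% of all genes tested. On library totals 6 were higher and 11 lower, again beside 927 higher and 3788 lower of all 16926 genes tested. PIK3CD, the catalytic subunit of the phosphoinositide 3-kinase of lymphocytes, rose from 10.3 ± 0.685 to 50.0 ± 7.60 CPM (log2 fold change 2.48, adjusted p = 3.25e-07, edgeR). VAV1, a signal transducer of blood cells, rose from 64.3 to 181 CPM (1.69), and PIK3AP1, the adaptor BCAP, from 44.1 to 123 CPM (1.67). SYK, the kinase that binds the phosphorylated CD79 chains, fell from 57.9 ± 2.69 to 30.9 ± 3.37 CPM (-0.71, adjusted p = 0.000612, edgeR). PLCG2, the phospholipase of the pathway, fell from 44.4 to 22.2 CPM (-0.81) and PIK3R1, a regulatory subunit, from 32.9 to 18.7 CPM (-0.62). LYN, the kinase that phosphorylates the CD79 chains and CD22, was chosen after its values were seen and rose from 5.75 to 21.1 CPM (2.08). BTK (adjusted p = 0.117) and BLNK (0.154), which act downstream of SYK and were also chosen after their values were seen, did not pass the test.

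Of 12 tested germinal centre genes, 3 were higher, 5 lower and 4 not called, with a median of -0.31. CXCR5, the receptor that draws B cells into follicles, rose from 6.76 to 1132 CPM (log2 fold change 7.58, adjusted p = 1.45e-09, edgeR). BCL9L, on the other strand, covers 88.6% of its exon bases, and the deposited counts were made by strand. GCSAM, a germinal centre signalling protein, rose from 0.525 to 1.87 CPM (1.95). EZH2 was at 113 and 123 CPM (0.32, adjusted p = 0.0376) and lost its call under 9 of 15 alternatives, with an adjusted p of 0.416 on library totals and of up to 0.129 without 1 library (GST-PTR1 library 2). IRAG2, the gene once named LRMP, fell from 47.9 to 17.6 CPM (-1.24). MYBL1 fell from 9.24 to 4.85 CPM (-0.74) and KLHL6 from 113 to 70.4 CPM (-0.49). Without GST-PTR1 library 3, MYBL1 had an adjusted p of 0.0553 and KLHL6 of 0.058, and without GST-PTR1 library 2 KLHL6 had 0.0695. The germinal centre list had 2 lower genes, not 5, without either of these libraries and 3 without GST library 3. Over all genes tested 1179 and 1212 were lower without GST-PTR1 libraries 2 and 3. Without GST library 3 the number was 1237, in place of 1937 in the main fit. The shares of this list were 25% higher and 41.7% lower, beside 9.15% and 11.4% of all genes tested.

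**Figure D4:**
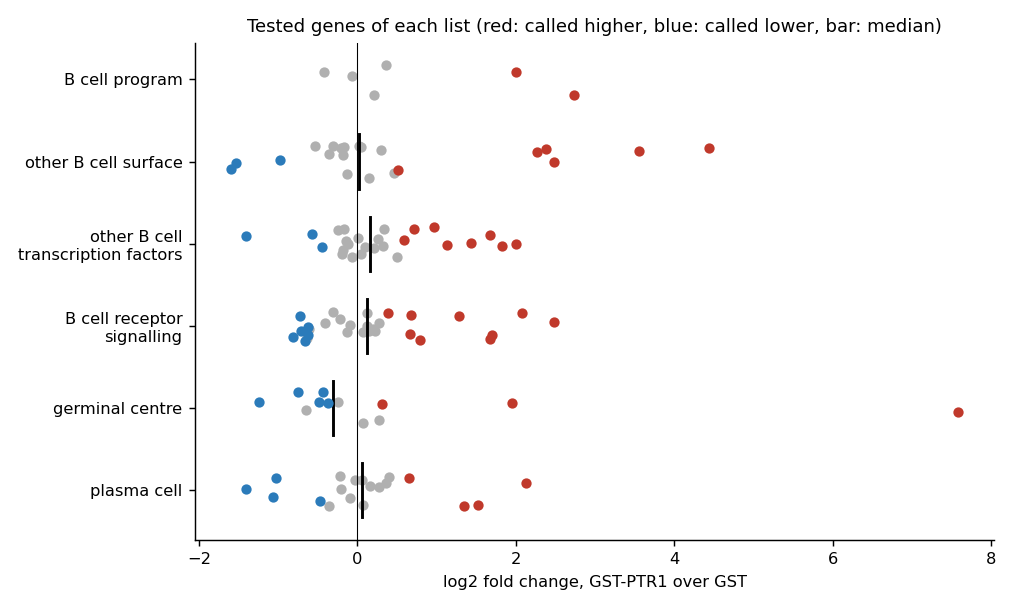
Log2 fold change of GST-PTR1 over GST for each tested gene of 6 lists (red for called higher, blue for called lower, grey for not called, by edgeR with adjusted p under 0.05). Black bars are list medians, which are not drawn for the 6 tested B cell program genes, and vertical spread within a list has no meaning. Each of the other 5 lists holds genes called in both directions, and CXCR5 at 7.58 lies farthest from 0.

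Plasma cell genes also moved in both directions, with 4 of 19 tested genes higher, 4 lower and 11 not called (median 0.06), or 21.1% each way beside 9.15% higher and 11.4% lower over all genes tested. ELL2, an elongation factor that acts in immunoglobulin secretion, rose from 59.0 to 225 CPM (log2 fold change 2.12). PRDM1, which BCL6 and BACH2 repress in B cells and which represses BCL6 and PAX5 in turn, rose from 63.6 ± 9.35 to 141 ± 17.5 CPM (1.35, adjusted p = 1.56e-05, edgeR). SLAMF7 rose from 5.97 to 14.9 CPM (1.52). SDC1 fell from 402 to 172 CPM (-1.03), TNFRSF17, which encodes BCMA, from 30.6 to 9.91 CPM (-1.41) and CREB3L2 from 50.6 to 21.1 CPM (-1.07). BCL6 and PRDM1 were thus higher in the same libraries. IRF4 and XBP1, chosen after their values were seen, went in opposite directions. IRF4 rose from 294 to 405 CPM (0.65, adjusted p = 0.00106, edgeR). XBP1 fell from 431 to 271 CPM (-0.47, adjusted p = 0.0149, edgeR) and lost its call under 4 of 15 alternatives.

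The tested genes most like each member were taken by Pearson's r of log2 CPM, scaled with TMM factors, over the 6 libraries. Only genes with a mean of at least 1 CPM were compared. The libraries form 2 treatments, so for a gene that moved with the treatment r is mostly a difference between 2 groups. For every member r is the highest among all genes compared, over only 6 libraries. High values can therefore arise without any link between the genes, and no link was tested. BCL6 was most like ADGRE1 (r = 0.999, log2 fold change 3.35) and CIITA (0.998, 3.07). SPIB was most like HLA-L (0.997, 0.72) and PSEN2 (0.996, 0.19). The nearest genes were MTMR10 (0.991) and LINC00930 (0.986) for PAX5, ENSG00000250202 (0.971) and CEP72 (0.969) for MS4A1, NRGN (0.999) and ANKS6 (0.988) for CD79A, and HCG18 (0.994) and PRKD1 (0.993) for BACH2. No gene was named for more than 1 member.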

How the data were processed

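RNA-Seq was performed on RPMI8226 cells treated with GST or GST-PTR1. The deposited values are raw counts, whole reads per gene, made with featureCounts (version 1.5.0-p1) on GRCh37 with Ensembl 75 gene models, by strand, without reads that mapped to several places or genes. The aligner is not given in the sources used here. Columns give the treatment but not the replicate number, so treatments were compared without pairing. No 2 libraries of a treatment agreed within sampling noise (smallest chi-square per gene 8.38).

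CPM and RPKM were computed from the deposited counts, library totals and deposited exon lengths. Treatments were tested with edgeR 4.0.16 in R 4.3.3 (TMM factors, filterByExpr, glmQLFit, glmQLFTest) over 16926 genes with Benjamini-Hochberg adjustment at 0.05, after a test on simulated data. Intervals are 95%. Standard errors are on the log2 scale, and SDs are over 3 libraries. Counts limit precision, and intervals on counts cover counting error only.

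Alternatives were DESeq2 1.42.0, limma 3.58.1 (voom), other scalings and filters, and leaving out each library. Thinning to the smallest total and fits of the 4 libraries with a column number in common were added after seeing the data. All members are named, with the 3 smallest adjusted p in each direction of each list, the 6 highest plasma cell genes and the 2 most similar genes per tested member. Members and lists were chosen with earlier results of these data known.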

Additional observations from a re-analysis of the deposited data

How the results depend on the processing

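The calls of BCL6 and SPIB held in the alternatives that tested them. BCL6 had a log2 fold change of 2.53 to 2.95 over 15 alternatives (adjusted p from 7.2e-55 to 3.82e-05) and SPIB of 1.73 to 2.47 over 14 (2.18e-10 to 0.00934). With at least 10 counts in every library only 1 program gene was called, because SPIB was not tested there (9 and 8 counts in 2 GST libraries). PAX5 (0.16 to 0.59) and CD79A (-0.61 to -0.20) kept their direction and were not called in 15 alternatives each. MS4A1 reversed to -0.41 in thinned libraries (adjusted p = 0.471), and BACH2 reversed to 0.28 in the 4 libraries that share a column number, to 0.25 without GST library 1 and to 0.05 without GST-PTR1 library 3 (-0.26 to 0.25 when each library was left out). The cause was not tested.

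For the 4 other B cell lists, leaving out 1 library at a time gave 22 to 26 genes higher and 10 to 17 lower, with 10 without GST-PTR1 library 2. Over all genes tested these fits gave 1051 to 1531 higher and 1179 to 1818 lower, with 1179 without GST-PTR1 library 2. Library totals gave 21 higher and 25 lower, and 927 higher and 3788 lower over all genes tested. CD8A and CD4 lost their calls in 2 and 3 alternatives.

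No paired analysis of all 6 libraries was possible because the columns carry no replicate number of the samples, so the planned fit with a replicate block was not run. In the 4 libraries with a column number in common, same-numbered libraries did not deviate together (Pearson's r across genes of -0.03). With the shared number as a block 3318 genes were called, against 3638 without it, and both fits called 2 program genes, BCL6 and SPIB. The log2 fold change of BACH2 was 0.28 with the block. With the block the germinal centre list had 3 lower genes, and 1715 of all 17343 genes tested were lower. Depth limits the statements on CD79B, CD22 and EBF1.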

Other observations

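The members were set against relatives or antagonists by their ratio of RPKM within each library, with pairs chosen after the values were seen, so the ratios are a description and were not tested. BCL6 over PRDM1, a pair of mutual repressors, was 0.0674, 0.0630 and 0.0576 with GST and 0.143, 0.167 and 0.181 with GST-PTR1. The mean ratio was 0.0627 ± 0.00489 and 0.163 ± 0.0191 (SD, n = 3 each). SPIB over SPI1, the 2 ETS relatives, went from a mean of 0.0149 to 0.0909, a log2 difference of 2.71. BACH2 over its paralog BACH1 was 0.133, 0.0732 and 0.0776 with GST and 0.0323, 0.0373 and 0.0295 with GST-PTR1. BACH2 thus stood lower against BACH1 in every GST-PTR1 library (log2 difference -1.47), and it was BACH1 that passed the test. BCL6 over BACH2 had means of 1.05 and 7.08.

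The tested genes next to the members that rose did not pass the test. On chromosome 3 of GRCh37 the nearest tested genes to BCL6 were RTP4, 349301 bases before it (log2 fold change 0.01, 95% interval -0.46 to 0.47, adjusted p = 0.988, edgeR), and LPP, 407557 bases after it (-0.15, -0.66 to 0.35, adjusted p = 0.667). On chromosome 19 POLD1 ended 922 bases before SPIB (0.01, -0.28 to 0.30, adjusted p = 0.975) and MYBPC2 began 1590 bases after it (0.03, -0.91 to 0.96, adjusted p = 0.970). CD79A lies between RPS19 (0.35, adjusted p = 0.0875) and ARHGEF1 (-0.21, adjusted p = 0.271). For the 4 neighbours of BCL6 and SPIB the intervals lie within a change of 2-fold. Next to genes that were not called or not tested, CCDC86 after MS4A1 fell (-0.58, adjusted p = 0.00186), PRR29-AS1 after CD79B fell (-1.33, adjusted p = 0.0053) and EEF1A1P7 after CD22, a pseudogene whose counts are uncertain because of its close copies, rose (0.46, adjusted p = 0.0263). The other 9 neighbours did not pass the test.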
